A study of Mus musculus with 30 samples.

Results

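The genes described here were 4 genes of cholinergic transmission, Slc18a3, Ache, Colq and Slc44a1, and they were chosen by symbol in the array's annotation and not by their values. Each had 1 probe set, so they made up 4 of the 12422 probe sets tested. They were measured in laser-captured cells of the spinal cords of 5 adult mice that had all been sham-operated, with each animal giving 3 pools. The IML pool held motoneurons of the intermediolateral column, the LMN pool lateral motoneurons and the MMN pool medial motoneurons, and LMN and MMN samples together are called somatic below. The labels used here state no strain, sex or age beyond adult. Each pool of an animal came from 400 captures, and its RNA was split and amplified for 2 technical arrays, called Set 1 and Set 2. This gave 30 arrays and, with technical arrays averaged, 15 samples, 5 in each pool.

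Acetylcholine is the transmitter of both autonomic preganglionic neurons, which lie in the intermediolateral column, and somatic motoneurons, which drive skeletal muscle. It is made in the cytoplasm from choline and acetyl-CoA, loaded into synaptic vesicles in exchange for protons, released, and broken down outside the cell. Slc18a3 encodes the vesicular acetylcholine transporter, which does the loading, and Ache encodes acetylcholinesterase, which does the breakdown. Colq encodes the collagen tail that anchors asymmetric acetylcholinesterase in the synaptic basal lamina. Slc44a1 encodes choline transporter-like protein 1, a widely expressed carrier that supplies choline for membrane phospholipids. Chat, the synthesising enzyme, and Slc5a7, the high-affinity choline transporter, were not analysed here.

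The 250 bases upstream of the annotated start are shown for the genes that had an entry in the RefSeq promoter table of GRCm38.p6, which were 3 of the 4, because the genes differed in how they varied between pools. They are written 5' to 3' on the gene's strand, and capitals mark the motifs searched on both strands. The Slc18a3 window lies at chr14:32464851-32465100 on the minus strand, the Ache window at chr5:137288004-137288253 on the plus strand, and the Slc44a1 window, for the first of 2 listed starts, at chr4:53440163-53440412 on the plus strand. Both the Slc18a3 gene and its window lie inside the bounds of the Chat gene.
Slc18a3: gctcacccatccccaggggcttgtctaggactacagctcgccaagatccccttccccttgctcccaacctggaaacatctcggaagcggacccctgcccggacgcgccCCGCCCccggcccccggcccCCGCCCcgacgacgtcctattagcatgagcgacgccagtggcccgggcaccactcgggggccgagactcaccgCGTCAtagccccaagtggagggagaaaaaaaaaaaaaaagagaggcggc
Ache: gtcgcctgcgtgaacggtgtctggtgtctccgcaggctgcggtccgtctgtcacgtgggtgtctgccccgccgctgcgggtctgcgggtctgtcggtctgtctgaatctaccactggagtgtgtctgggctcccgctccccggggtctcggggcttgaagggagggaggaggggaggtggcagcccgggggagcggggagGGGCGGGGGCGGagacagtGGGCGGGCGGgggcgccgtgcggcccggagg
Slc44a1: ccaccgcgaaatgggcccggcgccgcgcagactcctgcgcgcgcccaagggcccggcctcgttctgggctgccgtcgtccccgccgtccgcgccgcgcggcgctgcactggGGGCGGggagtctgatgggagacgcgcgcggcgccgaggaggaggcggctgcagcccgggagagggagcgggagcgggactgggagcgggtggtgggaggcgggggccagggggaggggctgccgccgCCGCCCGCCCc
The GC box GGGCGG occurred 2 times upstream of Slc18a3, 4 times upstream of Ache and 3 times upstream of Slc44a1, and the pair nearest the start shares letters in both Ache and Slc44a1. It is present in 32.7% of all 32851 promoter windows of this length. The cyclic-AMP response element half-site TGACG occurred 1 time upstream of Slc18a3, on the other strand, and in 17.8% of all windows. TAATTA, a core bound by homeodomain proteins, was not found in these 3 windows and is in 4.84% of all windows. The GC content was 66% for Slc18a3, 73.6% for Ache and 81.2% for Slc44a1, against a median of 52.4% over all windows. These matches describe letters and are not evidence of binding.

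Slc18a3 was 2.93-fold lower in the IML pool than in the LMN pool, and its level varied far more between animals in both somatic pools than in the IML pool. Its log2 levels in animals 1 to 5 were 7.15, 7.57, 7.08, 6.81 and 7.29 in IML samples, 10.11, 7.12, 8.36, 8.49 and 9.59 in LMN samples, and 9.87, 7.58, 7.40, 8.65 and 7.97 in MMN samples. The IML values lay close together, while animal 1 was the highest in both somatic pools, and the ranges of all 3 pools overlapped. The means were 7.18 ± 0.28, 8.73 ± 1.17 and 8.30 ± 1.01 in IML, LMN and MMN samples (SD, n = 5 each). The highest sample exceeded the lowest 1.69-fold within the IML pool, 7.99-fold within the LMN pool and 5.55-fold within the MMN pool.

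Set against the array median, Slc18a3 was a mid-range probe set in IML samples and an above-average one in most somatic samples. On average it stood 0.07 above the median on the log2 scale in IML samples, 1.64 in LMN samples and 1.21 in MMN samples. It was above the median on 5 of 10 IML arrays, 9 of 10 LMN arrays and 10 of 10 MMN arrays. Its median percentile among all probe sets was 50.2 on IML arrays, 75.3 on LMN arrays and 67.8 on MMN arrays. No detection calls were used, so a level near the median cannot be set against background.

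In the IML against LMN comparison, Slc18a3 fell by 1.55 ± 0.42 (SE), a 2.93-fold lower level, with a 95% interval of -2.47 to -0.63 and a limma adjusted p of 0.0423. IML was the lower pool in 4 of 5 animals, animal 2 being the exception. In this comparison 2 of the 4 genes passed the threshold of 0.05, Slc18a3 lower and Slc44a1 higher, beside 8.98% of all probe sets, 3.53% lower and 5.46% higher. The Slc18a3 call was close to the threshold: without the replicate block for animal its adjusted p was 0.173, and leaving out animal 1, 3, 4 or 5 ended it, with differences of -1.20 to -1.62 and limma adjusted p from 0.113 to 0.155.

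Against the mean of both somatic pools, Slc18a3 in IML samples differed by -1.33 ± 0.36 (SE; 95% interval -2.13 to -0.53), with a limma adjusted p of 0.0579, so it did not pass. Only Slc44a1 of the 4 genes passed in that comparison, where 5.52% of all probe sets did and 3.44% did so as higher in IML samples. Against MMN samples the IML difference was -1.11 ± 0.42 (SE; 95% interval -2.04 to -0.19; limma adjusted p 0.310), and without animal 1 it was -0.71. IML was the lower pool in 5 of 5 animals, but the difference in animal 2 was only -0.007. The Set 1 arrays alone gave the other direction in animals 2 and 5. They read 7.54 in IML and 7.53 in MMN samples for animal 2, and 7.38 and 7.11 for animal 5. Of all 12422 probe sets, 565 were lower and 598 higher in IML than in MMN samples in every animal. None of the 4 genes passed between IML and MMN samples, and 0.346% of all probe sets did. LMN and MMN samples differed by 0.44 ± 0.42 (SE; 95% interval -0.49 to 1.36; limma adjusted p 0.735), and by 0.14 without animal 5. None of the 4 genes passed between LMN and MMN samples either, and 0.0564% of all probe sets did.

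The order of the Slc18a3 means was therefore LMN, MMN and IML, with the neighbours LMN and MMN, and MMN and IML, not separated by the test. The LMN sample of animal 2 had the lowest LMN level. It also had the lowest summed intensity of 8 motoneuron markers among LMN samples, 10324, a sum that includes Slc18a3 itself. Its summed intensity of 10 meningeal and fibroblast markers was the highest among LMN samples, 19818. Without that sample Slc18a3 differed by -1.51 between IML and somatic samples, with a limma adjusted p of 0.0311, which passes. The part of marker content in this was not tested. In captured pools, fewer cells of a type and less RNA per cell cannot be told apart.

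**Figure D1:**
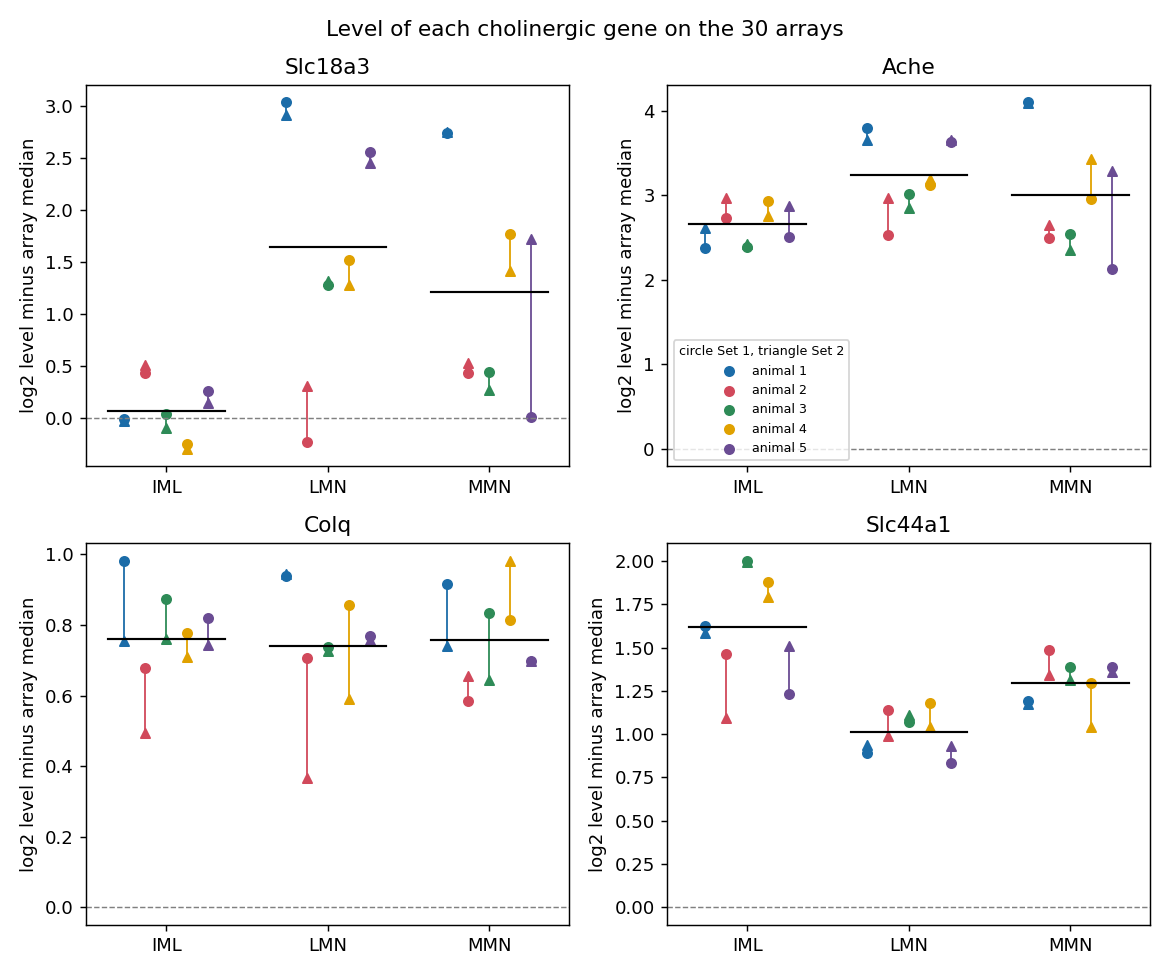
Log2 level minus the array median for each gene on all 30 arrays, by pool, with IML, LMN and MMN from left to right. Circles are Set 1, triangles Set 2, a thin line joins the arrays of a sample, colours are animals and black bars are pool means. Slc18a3 lies near the array median in IML samples, and Slc44a1 is highest there.

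Ache showed no difference between pools that passed the test, and it was well above the array median everywhere. Its log2 levels in animals 1 to 5 were 9.67, 9.95, 9.52, 9.93 and 9.78 in IML samples, 10.87, 9.83, 9.99, 10.25 and 10.72 in LMN samples, and 11.23, 9.67, 9.49, 10.25 and 9.81 in MMN samples. The IML samples were again the most alike, animal 1 was the highest in both somatic pools, and the pools overlapped. The means were 9.77 ± 0.18 in IML, 10.33 ± 0.45 in LMN and 10.09 ± 0.70 in MMN samples (SD, n = 5 each). Ache stood 2.66, 3.24 and 3.00 above the array median on the log2 scale in IML, LMN and MMN samples, and it was above the median on all 30 arrays.

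The IML level of Ache differed from the somatic mean by -0.44 ± 0.19 (SE; 95% interval -0.87 to -0.02; limma adjusted p 0.223), and by -0.21 when animal 1 was left out. The IML minus LMN difference was -0.56 ± 0.22 (SE; 95% interval -1.06 to -0.07; limma adjusted p 0.154). IML minus MMN was -0.32 ± 0.22 (SE; 95% interval -0.82 to 0.17; limma adjusted p 0.623), and it was -0.01 when animal 1 was left out. LMN minus MMN was 0.24 ± 0.22 (SE; 95% interval -0.25 to 0.73; limma adjusted p 0.724), and it was 0.07 without animal 5 and 0.39 without animal 1. The means ran LMN, MMN and IML, and no neighbours in that order were separated.

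Colq, the anchor of the enzyme, had pool means within 0.04 of each other on the log2 scale, and no difference passed. Its log2 levels in animals 1 to 5 were 8.04, 7.69, 7.93, 7.83 and 7.87 in IML samples, 8.08, 7.61, 7.79, 7.82 and 7.84 in LMN samples, and 7.96, 7.72, 7.78, 7.96 and 7.80 in MMN samples. Animal 2 gave the lowest value in each pool, and the pools overlapped throughout. The means were 7.87 ± 0.13, 7.83 ± 0.17 and 7.85 ± 0.11 in IML, LMN and MMN samples (SD, n = 5 each), and Colq stood 0.76, 0.74 and 0.76 above the array median. IML minus somatic was 0.03 ± 0.05 (SE; 95% interval -0.07 to 0.13; limma adjusted p 0.762). IML minus LMN was 0.04 ± 0.05, IML minus MMN 0.02 ± 0.05 and LMN minus MMN -0.02 ± 0.05 (SE), with limma adjusted p of 0.701, 0.907 and 0.938. In other tissues Colq is best known from skeletal muscle. Of 6 measured skeletal muscle markers none was called between IML and somatic samples, beside 5.52% of all probe sets. Their mean log2 level was 6.24 to 6.71 over the samples, below the median over probe sets of 7.10. The presence of muscle RNA was not tested.

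Slc44a1 was higher in the IML pool than in the LMN pool and than in the somatic samples together, while Slc18a3 was lower in IML than in LMN samples. Its log2 levels in animals 1 to 5 were 8.78, 8.38, 9.11, 8.92 and 8.46 in IML samples, 8.05, 8.14, 8.15, 8.20 and 7.96 in LMN samples, and 8.32, 8.51, 8.40, 8.23 and 8.48 in MMN samples. Every IML sample exceeded every LMN sample, every LMN sample was below every MMN sample, and the IML samples of animals 2 and 5 lay within the MMN range. The means were 8.73 ± 0.31 in IML, 8.10 ± 0.10 in LMN and 8.39 ± 0.12 in MMN samples (SD, n = 5 each). Slc44a1 stood 1.62, 1.01 and 1.30 above the array median in IML, LMN and MMN samples.

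Between IML and LMN samples Slc44a1 rose by 0.63 ± 0.12 (SE; 95% interval 0.37 to 0.88), a 1.54-fold higher level, with a limma adjusted p of 0.00984 and the same direction in 5 of 5 animals. In the same comparison 3.24% of all probe sets had samples that did not overlap, and 1261 of 12422 were higher in IML samples in every animal. Against the somatic mean Slc44a1 rose by 0.48 ± 0.10 (SE; 95% interval 0.26 to 0.71), a 1.40-fold higher level, with a limma adjusted p of 0.0223. It was higher in 5 of 5 animals, by 0.05 in animal 2, and 967 of 12422 probe sets were higher in every animal. That second call had an adjusted p of 0.0528 without the replicate block for animal, and it was lost when animal 1, 3, 4 or 5 was left out, with differences of 0.40 to 0.54 and limma adjusted p from 0.0570 to 0.114.

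Against MMN samples the IML level of Slc44a1 differed by 0.34 ± 0.12 (SE; 95% interval 0.08 to 0.60; limma adjusted p 0.282) and was higher in 3 of 5 animals. LMN minus MMN was -0.28 ± 0.12 (SE; 95% interval -0.54 to -0.02; limma adjusted p 0.384). LMN was lower in 5 of 5 animals without overlap, which 0.555% of all probe sets also showed in 1 direction or the other, but the difference did not pass. The order of the means was IML, MMN and LMN, and neither pair of neighbours was separated by the test.

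**Figure D2:**
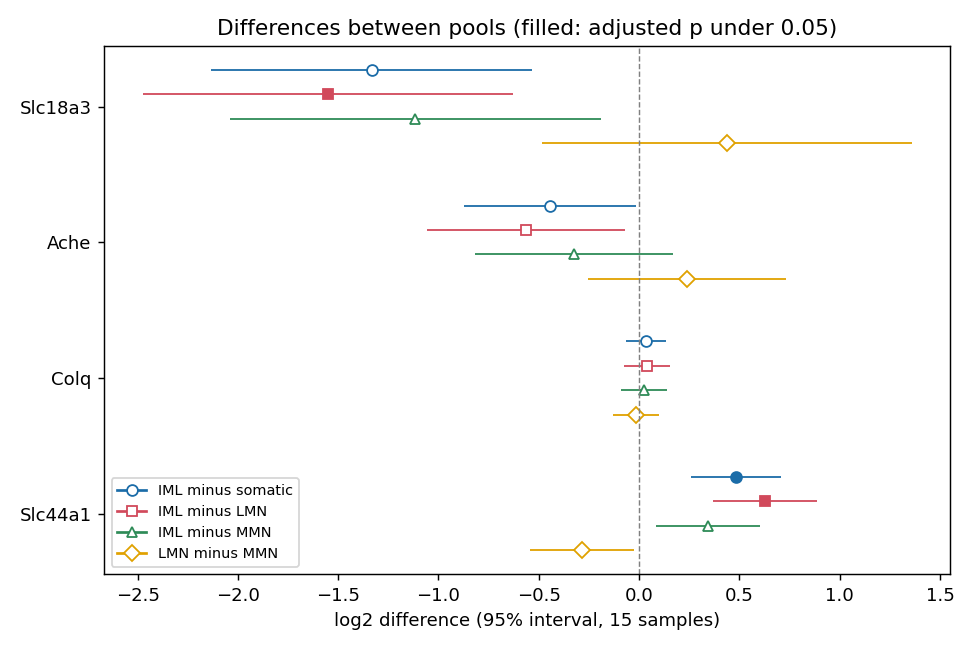
Log2 differences of the 4 genes with their 95% intervals from the model over 15 samples, for IML minus somatic, IML minus LMN, IML minus MMN and LMN minus MMN. Filled symbols passed an adjusted p of 0.05, which were Slc18a3 in IML minus LMN and Slc44a1 in IML minus LMN and IML minus somatic.

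Some markers of other cells were called higher in IML than in LMN samples, as Slc44a1 was. Of 10 meningeal and fibroblast markers, such as collagens, all 10 had a positive IML minus LMN difference and 9 were called higher, beside 5.46% of all probe sets, and their summed intensity was 21135 to 28549 in IML, 7346 to 19818 in LMN and 9532 to 31373 in MMN samples. Of 13 microglia and macrophage markers, 9 had a positive IML minus LMN difference and 7 were called higher, with sums of 2067 to 3591, 1813 to 2072 and 1837 to 2648 in IML, LMN and MMN samples. Of 9 astrocyte markers 5 had positive and 4 negative IML minus LMN differences. The 2 called higher were Fabp7, a fatty acid binding protein, at 1.56 ± 0.31 and Gja1, a gap junction protein, at 0.56 ± 0.12 (SE; limma adjusted p 0.0126 and 0.0190). The astrocyte sums were 12304 to 15759 in IML, 8579 to 12779 in LMN and 10288 to 14459 in MMN samples. Of 10 endothelial and mural markers 8 had positive differences in the same comparison and 2 were called higher, Vwf and Cdh5, both expressed by endothelium. Of 5 inhibitory interneuron markers 3 were positive and 2 negative, and 1 was called higher, Gad1, which makes GABA. The median inhibitory sum was lower in IML than in LMN samples, at 9981 and 13660. When the average level of those meningeal genes was entered as a covariate, Slc44a1 differed by 0.21 ± 0.25 between IML and LMN samples and by 0.17 ± 0.19 between IML and somatic samples (SE), with limma adjusted p of 0.937 and 0.923. In that limma model none of the 12422 probe sets passed in either comparison, and 665 and 716 had an unadjusted p under 0.05. The part of these cells in the result was not otherwise tested.

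Oligodendrocytes use much choline for myelin lipids. Of 10 oligodendrocyte markers none was called between IML and somatic or IML and LMN samples, beside 5.52% and 8.98% of all probe sets. In each comparison 8 of the 10 had positive differences. The medians of the 10 were 0.13 and 0.15, beside -0.01 and -0.02 over all probe sets. Their summed intensity was 11248 to 20062 in IML, 9495 to 18410 in LMN and 12787 to 17471 in MMN samples. With the mean of these markers as a covariate, Slc44a1 differed by 0.57 between IML and somatic samples, with a limma adjusted p of 0.0280. The part of oligodendrocytes in the Slc44a1 difference was not otherwise tested.

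Most measured motoneuron markers had the same sign of difference as Slc18a3. Of 14 listed, 8 were measured, and 7 of these, Slc18a3 itself included, had negative IML minus somatic differences. Those called lower in IML than in somatic samples were 4, namely Ret, a receptor for glial-derived neurotrophic factors, the neurofilaments Nefh and Nefl, and the matrix metalloproteinase Mmp9. Over all probe sets 2.09% were called lower there. The summed intensity of the 8 markers was 5222 to 8422 in IML, 10324 to 18915 in LMN and 8795 to 12654 in MMN samples, so on this sum IML samples lay below all somatic samples. On the mean log2 level of the same markers they overlapped, with the IML sample of animal 4 at 8.67 and the LMN sample of animal 2 at 8.62. Isl1, a homeodomain factor of motoneurons, was the exception at 0.14 ± 0.09 (SE; limma adjusted p 0.404), and it averaged 5.64 on the log2 scale, below the median over probe sets of 7.10. Of 5 measured visceral motoneuron markers, the neuropeptide genes Penk, Adcyap1 and Tac1 were called higher in IML than in somatic samples, beside 3.44% of all probe sets, and Nos1 was also below the median over probe sets at 5.71. The part of motoneuron content in the Slc18a3 difference was not tested.

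Slc18a3 and Ache varied together when the 15 samples of all pools were taken as 1 set. Their log2 levels had a Pearson correlation of 0.918 and a Spearman correlation of 0.782 over the 15 samples, which share animals, amplification and array type, and the Pearson value was 0.912 with each animal's mean taken out and 0.913 with each pool's mean taken out. Among 5610 probe sets at or above the median level with 1 symbol, Ache had the highest Pearson correlation with Slc18a3. The next were Fxyd7, a regulator of the sodium pump, at 0.908, Rab3b, a vesicle-associated GTPase, at 0.905, and Map6, a microtubule stabiliser, at 0.899, and these became 0.936, 0.894 and 0.922 with animal means taken out. Their Spearman correlations with Slc18a3 were 0.818, 0.907 and 0.825, all above that of Ache. For Ache the most alike were Cdk7, a cell-cycle and transcription kinase, at 0.928, Map6 at 0.925, Sec14l1 at 0.922 and Slc18a3, with 0.909, 0.892 and 0.913 for the first 3 of them with animal means taken out. The samples high in both genes were those of animal 1 in both somatic pools and the LMN sample of animal 5. Both genes varied least within the IML pool, and there they did not move together in every animal. The IML sample of animal 4 had the lowest Slc18a3 level of all samples, 6.81. Its Ache level of 9.93 was close to the highest of the IML pool, 9.95.

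**Figure D3:**
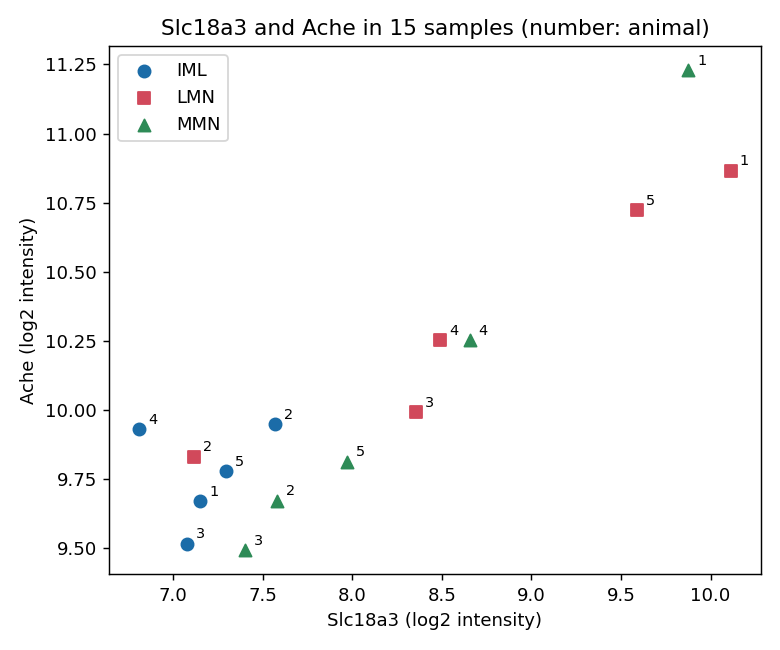
Log2 level of Ache against that of Slc18a3 in the 15 samples, with the animal number beside each point. The IML samples lie together at low Slc18a3, and the LMN and MMN samples of animal 1 and the LMN sample of animal 5 lie high on both axes.

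The other genes had their own nearest patterns. Slc44a1 was most like Lst1, a transcript of leukocytes, at 0.920, Slc35d1, a nucleotide sugar transporter, at 0.898, Parp2, a DNA repair enzyme, at 0.881 and Mapre1, a microtubule end-binding protein, at 0.877 (Pearson, 15 samples), and these became 0.935, 0.896, 0.959 and 0.904 with animal means taken out. Its correlation with Slc18a3 was -0.688, and -0.408 with pool means taken out. Colq was most like Eef1b2, a translation factor subunit, at 0.949, Ppfibp2 at 0.945, Abhd17a at 0.926 and Pias3 at 0.914. With animal means taken out these fell to 0.713, 0.698, 0.794 and 0.509, and the correlation of Colq with Slc18a3 was 0.014, against 0.457 before. Colq varied little, with an SD of 0.11 to 0.17 between the samples of a pool beside a technical SD between arrays of 0.132.

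Outside 1 sample, the technical arrays differed by at most 0.504 on the log2 scale for these genes. The median absolute difference between Set 1 and Set 2 on the log2 scale was 0.101 for Slc18a3, 0.191 for Ache, 0.133 for Colq and 0.0827 for Slc44a1. The largest was 1.71 for Slc18a3, in the MMN sample of animal 5, where Set 1 gave 7.11 and Set 2 gave 8.82, a 3.27-fold gap. Ache had its largest difference in that same sample, at 9.23 on Set 1 and 10.40 on Set 2. Set 1 was the lower array for both genes, while Colq and Slc44a1 differed by less than 0.03 there. The technical SD was 0.338 for Slc18a3 with this sample and 0.135 without it, and 0.264 and 0.161 for Ache.

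The disagreement was not confined to these genes. In that MMN sample 177 probe sets, or 1.42%, differed by more than 1 on the log2 scale between its arrays. Nefm was among them, lower by 1.05 on Set 1, while Nefh differed by 0.10, Prph by -0.01 and Mmp9 by -0.06. Also past 1 were the astrocyte marker Aqp4 at -1.67, the endothelial marker Cldn5 at -1.37 and the oligodendrocyte marker Mbp at -1.17. Set 1 was lower for 6 of 8 motoneuron, 7 of 9 astrocyte, 6 of 10 endothelial and mural and 6 of 10 oligodendrocyte markers. Of 15 samples, this MMN sample had the lowest correlation between partner arrays after probe set means were taken out, 0.184, the highest being 0.886. The next lowest were 0.277 in the LMN sample and 0.308 in the IML sample of animal 4, and 22 of the 30 arrays were closest to their partner. Without animal 4, Slc18a3 differed by -1.52 between IML and LMN samples and Slc44a1 by 0.43 between IML and somatic samples. The limma adjusted p were 0.113 and 0.0780, so these calls were lost. Slc44a1 kept its call between IML and LMN samples, at 0.60 with a limma adjusted p of 0.0315. Without the MMN sample of animal 5, Slc18a3 differed by -1.43 between IML and somatic samples, -1.55 between IML and LMN and -1.32 between IML and MMN. The limma adjusted p were 0.0586, 0.0480 and 0.287. Slc44a1 then differed by 0.52, 0.63 and 0.42 in the same comparisons, with limma adjusted p of 0.0228, 0.0107 and 0.233, so no call of either gene changed.

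**Figure D4:**
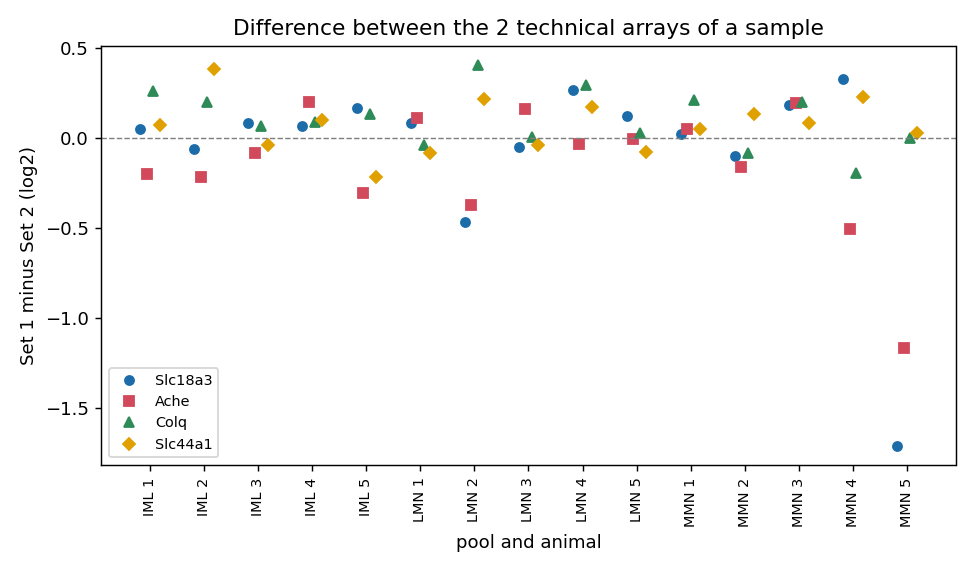
Set 1 minus Set 2 on the log2 scale for each gene in each of the 15 samples, by pool and animal. The MMN sample of animal 5 stands apart for Slc18a3 and Ache, at -1.71 and -1.16, and not for Colq or Slc44a1.

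The other genes of the cholinergic pathway were compared between IML and somatic samples, where 5.52% of all probe sets passed. Synthesis and choline reuptake were measured by 1 gene of 3, Acly, which makes acetyl-CoA from citrate, at -0.23 ± 0.10 (SE; limma adjusted p 0.233). Of 18 genes of choline supply and use, 10 were measured, and 1 passed: Gpcpd1, which hydrolyses glycerophosphocholine, fell by 0.52 ± 0.09 (SE; limma adjusted p 0.00997), and by 0.73 ± 0.10 against LMN samples alone (SE; limma adjusted p 0.00272). Its other probe set gave -0.04 and did not pass, and both probe sets can bind related transcripts. The median of the 10 was -0.03, beside -0.01 over all probe sets.

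Of 5 cholinesterase and anchor genes besides the members, 4 were measured and none passed. Dag1, the dystroglycan that links cells to the basal lamina, was at 0.22 ± 0.13, and Hspg2, the perlecan to which the collagen tail binds, at 0.07 ± 0.05 (SE). Of 16 nicotinic receptor subunits 8 were measured and none passed, with a median of -0.02. Chrne and Chrng, subunits of the muscle receptor, were at -0.07 ± 0.04 and -0.01 ± 0.05 (SE). Of 5 muscarinic receptors 2 were measured, Chrm1 at -0.01 ± 0.05 and Chrm4 at -0.03 ± 0.05 (SE), and neither passed. Of 10 genes of receptor assembly and the agrin pathway 4 were measured, and Ly6h, a membrane-anchored modulator of neuronal nicotinic receptors, rose by 0.40 ± 0.06 in IML samples (SE; limma adjusted p 0.00758) and by 0.50 ± 0.07 against LMN samples alone (SE; limma adjusted p 0.00307). Of 6 C-bouton genes none was analysed here.

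The vacuolar proton pump supplies the gradient that Slc18a3 uses. Of 16 listed subunits and accessory proteins 13 were measured, and 12 of these had negative IML minus somatic differences, with a median of -0.19 beside -0.01 over all probe sets. Atp6v1g1 passed, at -0.22 ± 0.05 (SE; limma adjusted p 0.0280), and the other 12 did not. Between IML and LMN samples the median was -0.30 beside -0.02 over all probe sets, and 12 of 13 were negative. Of these, 4 were called lower and the 1 positive one was called higher, beside 3.53% and 5.46% of all probe sets. The ones called lower were Atp6v1c1 at -0.33, Atp6v1g1 at -0.34, Atp6v1h at -0.33 and Atp6ap2 at -0.36, and the one called higher was Atp6v0e at 0.29, all named after their values were seen. The 1 other vesicular transporter measured of 6, Slc32a1, which loads GABA and glycine, was at -0.12 ± 0.20 (SE) between IML and somatic samples and did not pass.

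**Figure D5:**
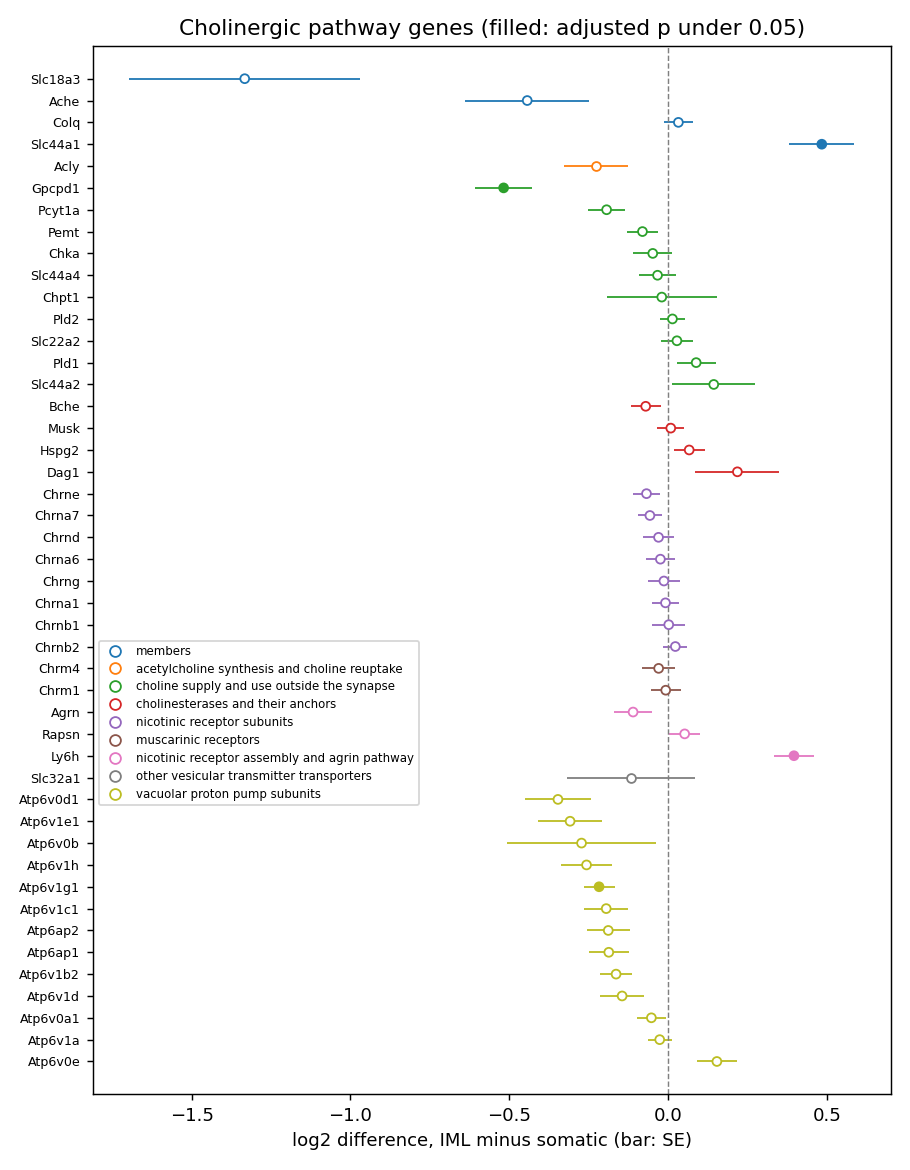
IML minus somatic log2 difference with its SE for the 4 genes and the measured genes of the pathway lists, each by its probe set with the highest mean. Filled symbols passed an adjusted p of 0.05, which besides Slc44a1 were Gpcpd1, Ly6h and Atp6v1g1, and 12 of 13 proton pump genes lie left of 0.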

How the data were processed

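The 30 arrays covered 12488 probe sets. Each deposited value is a linear intensity, which the authors normalised with R-pack and then returned from the log scale, per the labels. How R-pack worked is not stated there. Per the labels, the RNA was amplified in a 2-round protocol, which favours 3' ends and adds spread between targets. No detection calls were used, and the number of arrays limits the precision.

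The 66 control probe sets were left out. Of the 12422 tested, 10833 had 1 symbol, 396 several and 1193 none, and 10817 symbols were matched by gene identifier to a GRCm38.p6 gene table. The array annotation states no build, so no probe set position is given. Each pathway gene was represented by its probe set with the highest mean.

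Intensities were log2-transformed without an offset, and the technical arrays of a sample were averaged. Models with pool and animal as fixed terms were fitted over all 15 samples with limma 3.58.1 in R 4.3.3, with eBayes, two-sided tests and Benjamini-Hochberg adjustment over 12422 probe sets at 0.05. Animal was a block because, per the labels, every animal gave all 3 pools, and same-animal samples deviated together in 15 of 15 pairs, with correlations of at least 0.288. The model was tested on simulated data. Alternatives changed the block, the technical arrays, the normalisation, the low-value filter, the offset, the variance model, the samples and marker covariates. The fits without the MMN sample of animal 5 and without the LMN sample of animal 2 were added after the data were seen. The members, lists and tests were chosen with earlier results of these data known. From each list the genes called between IML and somatic samples were named, otherwise the 2 with the highest mean, and for each member the 4 probe sets with the highest Pearson correlation.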

Additional observations from a re-analysis of the deposited data

How the results depend on the processing

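Of 300 member results under alternatives, 270 kept their direction and their side of the threshold. Slc44a1 in IML minus LMN passed in 18 of 19 alternatives and in IML minus somatic in 12 of 18. Slc18a3 in IML minus LMN passed in 8 of 19. Ache and Colq passed in none, nor did any gene in IML minus MMN or LMN minus MMN. The cause of the changes was not tested.

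Without the replicate block, Slc44a1 IML minus somatic stayed at 0.48 and Slc18a3 IML minus LMN at -1.55, and neither passed. Slc18a3 IML minus LMN also missed the threshold with Set 1 arrays (-1.52), an offset of 32 (-1.39), the trend and robust variance model (-1.55), only the pools compared (-1.55), the oligodendrocyte covariate (-1.60) and the meningeal covariate (-1.58). It ran from -2.05 to -1.20 with 1 animal or sample left out. Slc44a1 missed with the meningeal covariate in IML minus somatic (0.17) and IML minus LMN (0.21), and ran from 0.40 to 0.59 with 1 left out in IML minus somatic. Slc18a3 IML minus somatic passed with animal as a random block (-1.33), Set 2 arrays (-1.43), dim probe sets left out (-1.33) and without animal 2 (-1.72) or its LMN sample alone (-1.51), and ran from -1.72 to -0.96. The Colq differences changed sign in LMN minus MMN with Set 1 arrays (0.0407), the meningeal covariate (0.0034) and 1 animal left out (-0.0496 to 0.0160), in IML minus somatic with Set 2 arrays (-0.000902) and in IML minus MMN with Set 2 arrays (-0.0372) and 1 animal left out (-0.00506 to 0.0640).

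The probe sets called numbered 686 in IML minus somatic, 1116 in IML minus LMN, 43 in IML minus MMN and 7 in LMN minus MMN. Without the replicate block they were 46, 135, 4 and 0, and with the meningeal covariate 0, 0, 3 and 0. The counts of 0 in LMN minus MMN stood beside 435 and 628 at an unadjusted p under 0.05 in limma. With Set 1 arrays the first 3 were 304, 601 and 9, and with the oligodendrocyte covariate the first 2 were 395 and 629. With Set 2 arrays IML minus LMN had 713 and LMN minus MMN 3. With only the pools compared IML minus LMN had 705, IML minus MMN 6 and LMN minus MMN 67. With a random block IML minus MMN had 67 and LMN minus MMN 4, with the offset IML minus MMN had 22, and with dim probe sets left out LMN minus MMN had 4. With 1 animal or sample left out the counts ran from 164 to 650, 371 to 1011, 0 to 42 and 0 to 10. At an unadjusted p under 0.05, limma gave 2574, 2923, 1533 and 1447 in the same order.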
